A study of Homo sapiens with 6 samples.

Results

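The genes described here are HSF1, the transcription factor that switches on the heat shock response, and 9 cytosolic chaperone and co-chaperone genes, namely HSPA6, HSPA1A, HSPA1B, HSPA8, DNAJB1, DNAJA1, HSPH1, HSP90AA1 and BAG3. They were chosen by symbol with earlier results of these data known, so their shares beside those of all tested genes are descriptive only. All 10 were found among the 37871 genes of the deposited count table. The libraries were made from T24, a human cell line of bladder carcinoma grown in DMEM, 3 after LPS plus nigericin and 3 after vehicle. LPS comes from the outer membrane of Gram-negative bacteria and is sensed by TLR4, and nigericin exchanges potassium for protons across membranes, a classical trigger of NLRP3. Doses and times, not given in the sources used here, remain unknown. No library of either agent alone was analysed, so effects of the agents cannot be told apart.

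When proteins in the cytosol unfold, chaperones that normally hold HSF1 inactive are drawn away, and HSF1 forms a trimer that binds heat shock elements, repeats of the letters NGAAN in alternating orientation, in front of chaperone genes. HSP70 proteins then bind exposed hydrophobic stretches of their clients in a cycle driven by ATP, J-domain proteins deliver the clients, and nucleotide exchange factors release them. HSF1 itself is mostly regulated as a protein, by its chaperone partners and by phosphorylation, so its transcript level is not a measure of its activity.

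RefSeq promoter windows of GRCh38.p14, from 250 bases before to 50 bases after each start, were matched for 9 of the 10 genes, with 12 windows in all. The searched motifs were GAANNTTCNNGAA or TTCNNGAANNTTC, the 3-unit heat shock element read on either strand, and GAANNTTC or TTCNNGAA, the 2-unit element that every 3-unit element contains. The 3-unit letters stood in 172 of all 35116 windows (0.49%) and the 2-unit letters in 4737 (13.5%). Among the genes described here, 4 held a 3-unit match in at least 1 window, and 7 held a 2-unit match. The stretches below were picked because each holds a match. They are shown 5′ to 3′ on the strand of the gene, with the matched letters in capitals. All but the last run up to the base before the RefSeq start, and the last begins at the start itself.
HSPA6, chr1:161524430-161524539, plus strand: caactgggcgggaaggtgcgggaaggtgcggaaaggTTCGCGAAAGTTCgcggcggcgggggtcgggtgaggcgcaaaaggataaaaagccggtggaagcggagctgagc
HSPA8, chr11:123062137-123062246, minus strand: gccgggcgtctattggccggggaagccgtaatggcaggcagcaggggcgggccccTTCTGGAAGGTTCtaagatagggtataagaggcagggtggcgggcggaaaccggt
HSP90AA1, chr14:102087045-102087154, minus strand: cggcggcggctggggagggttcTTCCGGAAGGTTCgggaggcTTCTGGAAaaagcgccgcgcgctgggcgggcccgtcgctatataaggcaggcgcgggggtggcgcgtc
HSPA1A, chr6:31815413-31815542, plus strand: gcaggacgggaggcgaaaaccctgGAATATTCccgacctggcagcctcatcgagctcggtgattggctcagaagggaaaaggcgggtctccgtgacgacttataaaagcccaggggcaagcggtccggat
HSPA1B, chr6:31827608-31827737, plus strand: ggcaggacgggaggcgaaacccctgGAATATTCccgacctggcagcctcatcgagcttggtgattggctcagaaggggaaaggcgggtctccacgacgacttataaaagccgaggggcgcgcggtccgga
DNAJB1, chr19:14518398-14518507, minus strand: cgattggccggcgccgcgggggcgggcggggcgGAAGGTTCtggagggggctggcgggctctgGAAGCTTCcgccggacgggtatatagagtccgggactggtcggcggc
DNAJA1, chr9:33025273-33025297, plus strand: gcgGAACTTTCCAGAAcgctcggtg

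In HSPA6 the 3-unit match began 74 bases before the start, in HSP90AA1 88 bases before it, and in HSPA8 55 and 230 bases before it. DNAJA1 held its 3-unit match at base 4 after the start. HSPA1A and HSPA1B each held a single 2-unit match, and their printed stretches, set off by 1 base, were identical at 121 of 129 positions. Of the 3 start sites listed for DNAJB1, the one shown had 2-unit matches beginning 77 and 47 bases before it, another had 1 match just after it, and the third had none. HSP90AA1 has another listed start site, and that window held no match. The windows of HSPH1 and BAG3 held neither motif, which says only that these exact letters are not in these windows.

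After LPS plus nigericin all 9 chaperone and co-chaperone genes were higher than in vehicle, and HSF1 was lower. HSPA6, a strictly stress-inducible HSP70, differed most, with a fitted difference of 40.7-fold, followed by HSPH1, the HSP110 that releases nucleotide from HSP70, at 9.41-fold. HSP90AA1, DNAJA1 and DNAJB1 stood at 3.95-fold, 3.76-fold and 3.09-fold, and HSPA8, the constitutive HSP70, at 1.40-fold. Fold changes and adjusted p-values are from edgeR's quasi-likelihood test with Benjamini-Hochberg adjustment over all 19170 genes tested, with 0.05 as the threshold. All 10 genes had enough counts to be tested and all passed. Of all tested genes 55.3% passed, 28.9% higher and 26.4% lower. The groups did not overlap for any of the 10, which held for 67% of all tested genes. The median log2 fold change of the 10 was 1.46, against 0.00 over all tested genes. Levels are in CPM, counts per 1e6 counts of a library scaled by edgeR's TMM factors, as mean ± SD over n = 3 libraries per group.

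**Figure D1:**
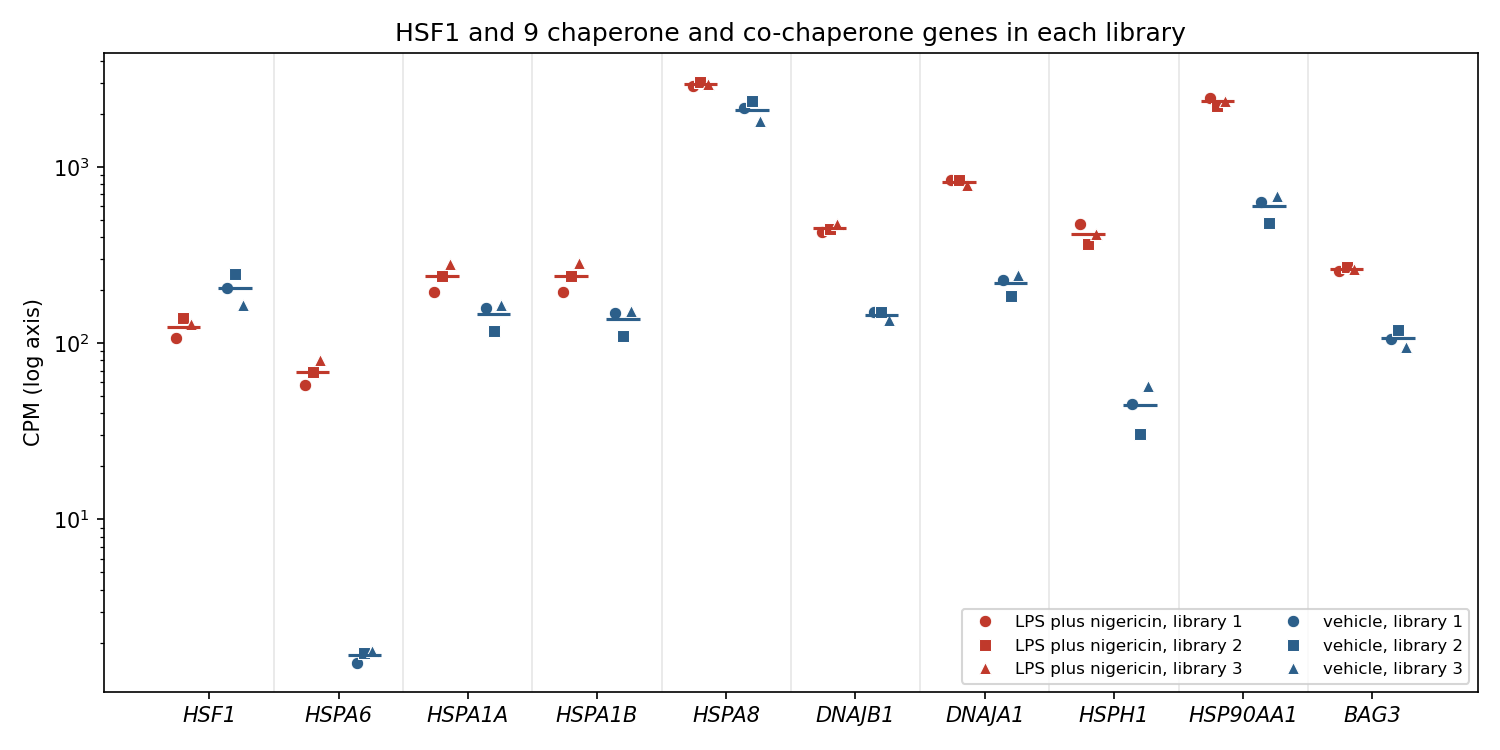
Level of HSF1 and the 9 chaperone and co-chaperone genes in each library, in CPM on a log axis. Points are single libraries, with shapes for library numbers, and bars are group means. HSPA6 lies between 58.0 and 80.3 CPM after LPS plus nigericin and between 1.53 and 1.80 CPM after vehicle, and HSF1 is the only gene of the 10 whose treated libraries all lie below vehicle.

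The libraries held 66180407 to 86594539 counts after LPS plus nigericin and 81917343 to 89152224 after vehicle. Keratin genes of epithelial cells marked both groups, with KRT7 at 2032 CPM after treatment and 3352 CPM after vehicle, whereas the epithelial cadherin gene CDH1 was at most 0.0714 CPM in any library. Urothelial markers (UPK1A, UPK1B, UPK2, UPK3A, KRT20 and KRT5) summed to 0.143 to 0.443 CPM after treatment and 0.538 to 0.747 CPM after vehicle. Of these, UPK1B was at 0 throughout. All 6 epithelial markers summed to 3510 to 4512 CPM after treatment and 6535 to 9536 CPM after vehicle, and 5 mesenchymal markers, mostly FN1, to 6689 to 9132 CPM after treatment and 2654 to 4066 CPM after vehicle. Single markers did not all follow these sums. KRT7, KRT8, KRT18 and KRT19 were called lower, while EPCAM was not called (log2 fold change 0.59). FN1 (1.29), CDH2 (1.78) and ZEB1 (1.81) were called higher, SNAI2 was called lower (-1.37) and VIM was not called (-0.25). The part of these shifts in the results was not tested. Leukocyte markers, 4 of 6 names in the table, summed to 3.08 to 4.83 CPM after treatment and 2.64 to 4.42 CPM after vehicle. The defining PTPRC was at most 0.0360 CPM in the treated libraries and at 0 in all vehicle libraries. Most of the sum was CD14, at 3.06 CPM after treatment and 3.43 CPM after vehicle, which was not called (log2 fold change -0.16). LYZ was called higher (3.34), at 0.673 CPM after treatment and 0.0671 CPM after vehicle. Mitochondrial transcripts took 12.04% to 12.4% of counts after treatment and 6.49% to 7.33% after vehicle. Fold change also moved with transcript GC content, as given beside the results, and with transcript length. In length quintile 1 of protein-coding genes 14.6% of tested genes were called higher and 43.2% lower, and in length quintile 5, of the longest transcripts, 55.8% higher and 11.2% lower. HSPH1 (5191 bases) was in length quintile 4, where 40.3% were called higher and 20.9% lower, HSF1 and HSP90AA1 were in quintile 3 (32.6% and 28.4%), and the other 7 genes were in quintile 2 (21.9% and 37.6%). Separate cultures are not stated in the labels, so the p-values cover the spread among these 6 libraries, which may be technical. Nor do they say that both groups were prepared together, so the treatment and a difference in preparation cannot be told apart. In bulk RNA, a change in the number of responding cells and a change in RNA per cell cannot be told apart either.

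HSF1 (ENSG00000185122; chromosome 8, 144291591 to 144314722, plus strand of GRCh38, positions from GENCODE 29) had 107, 138 and 128 CPM in the treated libraries, against 205, 247 and 165 CPM in the vehicle libraries. All 3 treated values lay below all 3 vehicle values, and vehicle library 2 was the highest. The mean was 124.5 ± 15.9 CPM after treatment and 205.6 ± 41.2 CPM after vehicle (SD, n = 3 each; log2 fold change -0.72, SE 0.170, edgeR adjusted p = 0.00788). HSF1 is GC-rich, with 64.7% GC in its longest transcript. In GC quintile 5 of protein-coding genes, where it falls, 60.3% of tested genes were called lower and 7.30% higher, and the median log2 fold change was -0.74. Each library's log2 CPM, taken relative to the mean of the 6, was also correlated with GC content across 13976 protein-coding genes, with Spearman coefficients of -0.54, -0.43 and -0.49 in treated libraries 1 to 3 and 0.50, 0.61 and 0.19 in vehicle libraries 1 to 3. The order of HSF1 within each group, with library 2 highest in both, was that of these coefficients. The coefficients were negative in all treated and positive in all vehicle libraries, so the GC trend and the treatment cannot be told apart. Whether the GC trend accounts for the HSF1 difference was not tested. With loess offsets fitted to GC content and transcript length, called the GC and length correction below, HSF1 stood at -0.059 on the log2 scale (SE 0.0783, edgeR adjusted p = 0.565) and was not called. Part of its exon sequence (139 bases) overlaps that of DGAT1 on the opposite strand, and whether reads were counted by strand is unknown.

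**Figure D2:**
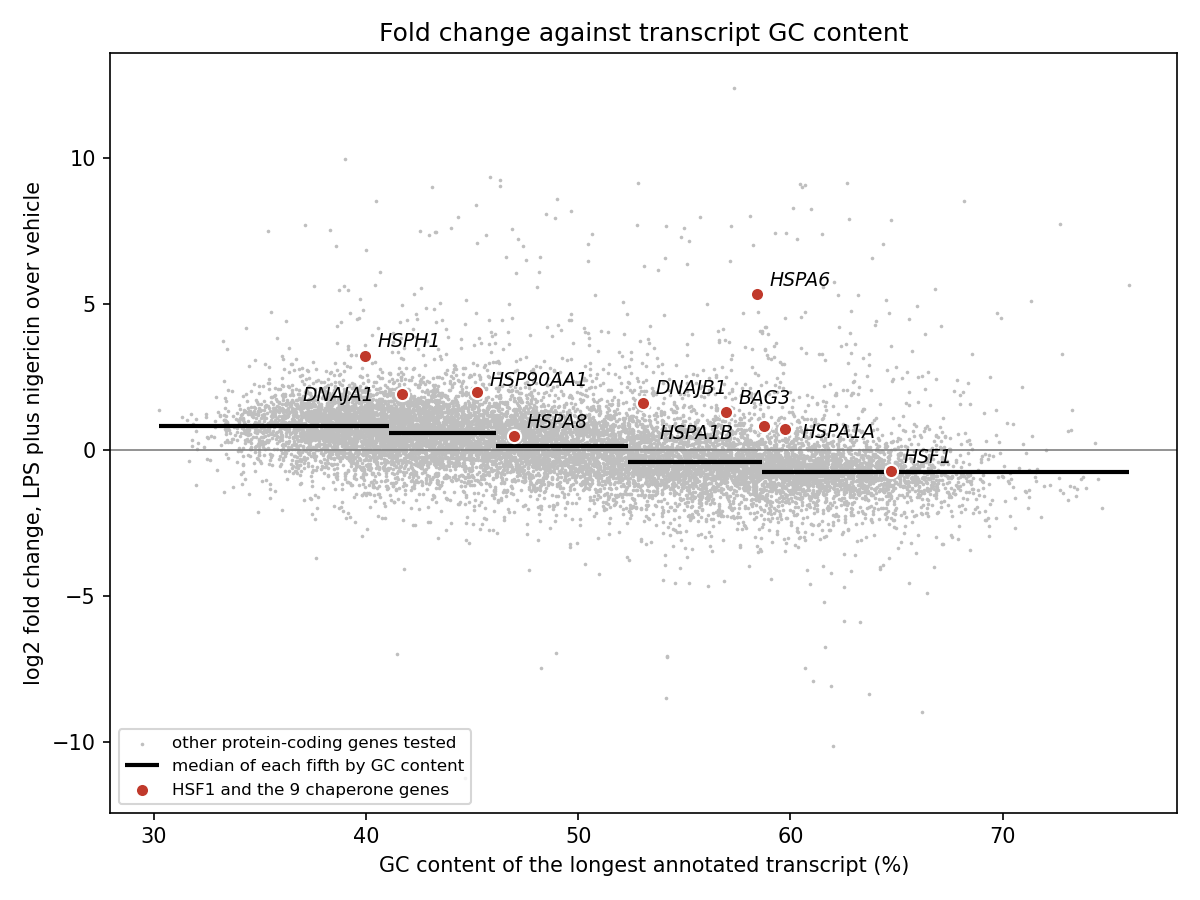
Log2 fold change of LPS plus nigericin over vehicle for each tested protein-coding gene (grey) against the GC content of its longest annotated transcript in percent, with medians of the GC quintiles as black bars. HSF1 and the 9 chaperone genes are red. HSF1, at -0.72, lies on the median of its quintile (-0.74), while HSPA6 at 5.35 and DNAJB1 at 1.63 lie above a quintile median of -0.40.

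HSPA6 (ENSG00000173110; chromosome 1, 161524540 to 161526910, plus strand) is a gene of 1 exon that most unstressed cells barely transcribe. The gene had 3836, 5730 and 6742 counts in the treated libraries, against 140, 133 and 164 counts in the vehicle libraries. In CPM these were 58.0, 68.7 and 80.3 after treatment and 1.53, 1.74 and 1.80 after vehicle. The lowest treated library was thus far above the highest vehicle library. HSPA6 rose by 5.35 on the log2 scale (SE 0.184, edgeR adjusted p = 1.02e-05), which placed it 18th by fold change among the 10996 genes with at least 5 CPM in the higher group. Its GC content of 58.4% puts it in GC quintile 4, where 15.3% of genes were called higher and 44.3% lower, and its value with the GC and length correction was 5.88. HSPA7, an unprocessed pseudogene close to HSPA6 in sequence and lying on the same chromosome, was at 5.04 ± 0.688 CPM after treatment and 0.112 ± 0.0225 CPM after vehicle (log2 fold change 5.47, SE 0.280). Of the 100-base windows of the HSPA6 transcript, 27.6% occur letter for letter in HSPA7, so reads in those windows cannot be told apart. HSPA7 took 6.28% to 7.40% of the joint counts after treatment and 5.41% to 6.82% after vehicle, and the sum of both genes had a log2 fold change of 5.36 (SE 0.183).

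HSPA1A and HSPA1B (ENSG00000204389 and ENSG00000204388; chromosome 6, 31815464 to 31817946 and 31827735 to 31830255, both plus strand) encode the same inducible HSP70, HSP72. HSPA1A had 195, 241 and 284 CPM in the treated libraries, against 159, 117 and 164 CPM in the vehicle libraries. HSPA1B had 195, 241 and 286 CPM in the treated libraries, against 149, 110.2 and 153 CPM in the vehicle libraries. In both genes treated library 1 stood nearest to vehicle and treated library 3 was the highest. HSPA1A rose by 0.71 (SE 0.181, edgeR adjusted p = 0.0112) and HSPA1B by 0.81 on the log2 scale (SE 0.180, edgeR adjusted p = 0.00619). Without treated library 3 the HSPA1A value was 0.57 and was not called (edgeR adjusted p = 0.0524). The values cannot be read as separate genes, because 69.9% of the 100-base windows of HSPA1A occur letter for letter in HSPA1B and the counts split evenly between them, with HSPA1A at 49.8% to 50.04% of the pair after treatment and 51.5% to 51.8% after vehicle. HSPA1B also shares 920 bases of exon with AL671762.1 on the same strand. Summed before the fit, the pair was at 480.4 ± 89.3 CPM after treatment and 284.0 ± 49.4 CPM after vehicle (log2 fold change 0.76, SE 0.181, edgeR adjusted p = 0.00850). Both are in GC quintile 5, where 7.30% of genes were called higher, and with the GC and length correction HSPA1A was at 1.27 and HSPA1B at 1.33. HSPA1L, the neighbour that starts on the opposite strand before HSPA1A and is mainly known from testis, fell, with 0.607 ± 0.116 CPM after treatment and 2.12 ± 0.264 CPM after vehicle (log2 fold change -1.81, SE 0.266).

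HSPA8 (ENSG00000109971; chromosome 11, 123057489 to 123063230, minus strand) encodes HSC70, the constitutive cytosolic HSP70 of housekeeping folding and clathrin uncoating. It had 2893, 3041 and 2951 CPM in the treated libraries, against 2172, 2362 and 1828 CPM in the vehicle libraries. The groups did not overlap, and the vehicle libraries were the more scattered. HSPA8 rose by 0.48 on the log2 scale (SE 0.127, edgeR adjusted p = 0.0128), the smallest rise among the 9 chaperone genes. The call was lost with the GC and length correction, at 0.31 (edgeR adjusted p = 0.0907), and without treated library 3, at 0.48 (edgeR adjusted p = 0.0503). By mean CPM it was the 23rd most abundant of all tested genes after treatment and the 41st after vehicle. In GC quintile 3, where HSPA8 falls, 33.5% of genes were called higher and 21.7% lower.

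HSPA8 made up most of the cytosolic HSP70 transcripts in both groups. Counted per kilobase of longest transcript, HSPA6, HSPA1A and HSPA1B made up 13.3%, 15.2% and 17.9% of the sum of these 3 and HSPA8 in the treated libraries, against 12.3%, 8.72% and 14.7% in the vehicle libraries. The groups overlapped, and the difference of 3.59 percentage points did not pass an exact two-sided permutation test over the 6 libraries (p = 0.2, where the smallest possible p is 0.1). The share was not computed with the GC and length correction, under which the sum of HSPA1A and HSPA1B was at 1.30 and HSPA8 at 0.31 on the log2 scale, against 0.76 and 0.48 without it. HSPA6 alone took 1.80%, 1.99% and 2.32% of this sum after treatment, against 0.0643%, 0.0700% and 0.0872% after vehicle. Even after its large fold change it remained a minor part of the cytosolic HSP70 transcripts, with HSPA8 at 82.1% to 86.7% after treatment and 85.3% to 91.3% after vehicle.

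Both J-domain genes rose and were more abundant per HSP70 transcript after treatment. DNAJB1 (ENSG00000132002; chromosome 19, 14514770 to 14529770, minus strand) encodes HSP40, which stimulates HSP70 ATPase activity and works with HSPH1 and HSPA8 in taking protein aggregates apart. It had 427, 446 and 475 CPM in the treated libraries, against 150.1, 150.4 and 136 CPM in the vehicle libraries. All treated values were close together and well above vehicle. DNAJB1 rose by 1.63 on the log2 scale (SE 0.107, edgeR adjusted p = 4.90e-05), and by 1.88 with the GC and length correction. Its exons share 211 bases with TECR on the opposite strand, and those of HSP90AA1 share 197 bases with WDR20, also on the opposite strand.

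DNAJA1 (ENSG00000086061; chromosome 9, 33025211 to 33039907, plus strand) encodes HDJ2, a farnesylated HSP40 of general client delivery. It had 845, 843 and 788 CPM in the treated libraries, against 228, 185 and 245 CPM in the vehicle libraries. The groups were far apart, with the treated libraries close to one another. DNAJA1 rose by 1.91 on the log2 scale (SE 0.134, edgeR adjusted p = 5.99e-05). It is GC-poor, at 41.7%, in GC quintile 2, where 50.1% of genes were called higher and 9.84% lower, and with the correction it was at 1.48. Per 100 HSP70 transcripts, on the per-kilobase scale, DNAJA1 stood at 24.4 ± 1.76 after treatment and 9.59 ± 2.21 after vehicle, and DNAJB1 at 13.9 ± 0.430 after treatment and 6.60 ± 0.282 after vehicle (SD, n = 3 each). Neither ratio overlapped between the groups. Ratios to the HSP70 sum, here and for HSPH1 and BAG3 below, were not computed with the GC and length correction.

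HSPH1 and BAG3, both nucleotide exchange factors of HSP70, rose too. HSPH1 (ENSG00000120694; chromosome 13, 31134974 to 31162388, minus strand) had 473, 364 and 418 CPM in the treated libraries, against 45.5, 30.5 and 57.4 CPM in the vehicle libraries. The lowest treated library was several times the highest vehicle library, although the vehicle libraries differed among themselves. HSPH1 rose by 3.23 on the log2 scale (SE 0.240, edgeR adjusted p = 6.91e-05). It is the most GC-poor of the 10 genes, at 39.95% in GC quintile 1, where 59% of genes were called higher and 5.15% lower, and with the correction its log2 fold change was 2.43 (SE 0.0947). Per 100 HSP70 transcripts on the per-kilobase scale, HSPH1 stood at 5.69 ± 0.960 after treatment and 0.901 ± 0.357 after vehicle.

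BAG3 (ENSG00000151929; chromosome 10, 119651370 to 119677819, plus strand) is an exchange factor that links HSP70 to small heat shock proteins and to the selective autophagy of damaged proteins. It had 257, 269.7 and 263 CPM in the treated libraries, against 106, 119.6 and 95.2 CPM in the vehicle libraries. Treated libraries agreed closely, with an SD of 6.17 CPM, and none came near vehicle. BAG3 rose by 1.30 on the log2 scale (SE 0.117, edgeR adjusted p = 1.36e-04), and by 1.77 with the correction. At 56.9% GC it is in quintile 4, where 15.3% of genes were called higher. Per 100 HSP70 transcripts on the per-kilobase scale it stood at 7.20 ± 0.184 after treatment and 4.26 ± 0.170 after vehicle.

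HSP90AA1 (ENSG00000080824; chromosome 14, 102080738 to 102139699, minus strand) encodes the inducible HSP90 alpha, which matures kinases and receptors and also helps to keep HSF1 inactive. It had 2481, 2234 and 2382 CPM in the treated libraries, against 631, 480.0 and 686 CPM in the vehicle libraries. Vehicle library 2 was the lowest, and the treated libraries were all over 3 times the highest vehicle library. HSP90AA1 rose by 1.98 on the log2 scale (SE 0.155, edgeR adjusted p = 8.07e-05) and by 1.60 with the correction. By mean CPM it was the 34th most abundant tested gene after treatment and the 206th after vehicle. HSP90AB1, the constitutive HSP90 beta, rose less, by 1.06 (SE 0.102), with 2623 ± 58.2 CPM after treatment and 1260.5 ± 39.2 CPM after vehicle. HSP90AA1 made up 39.4% to 41.4% of both HSP90 transcripts per kilobase after treatment and 22.5% to 28.7% after vehicle, with no overlap. This share was not computed with the correction, under which HSP90AA1 was at 1.60 and HSP90AB1 at 0.96, against 1.98 and 1.06 without it.

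**Figure D3:**
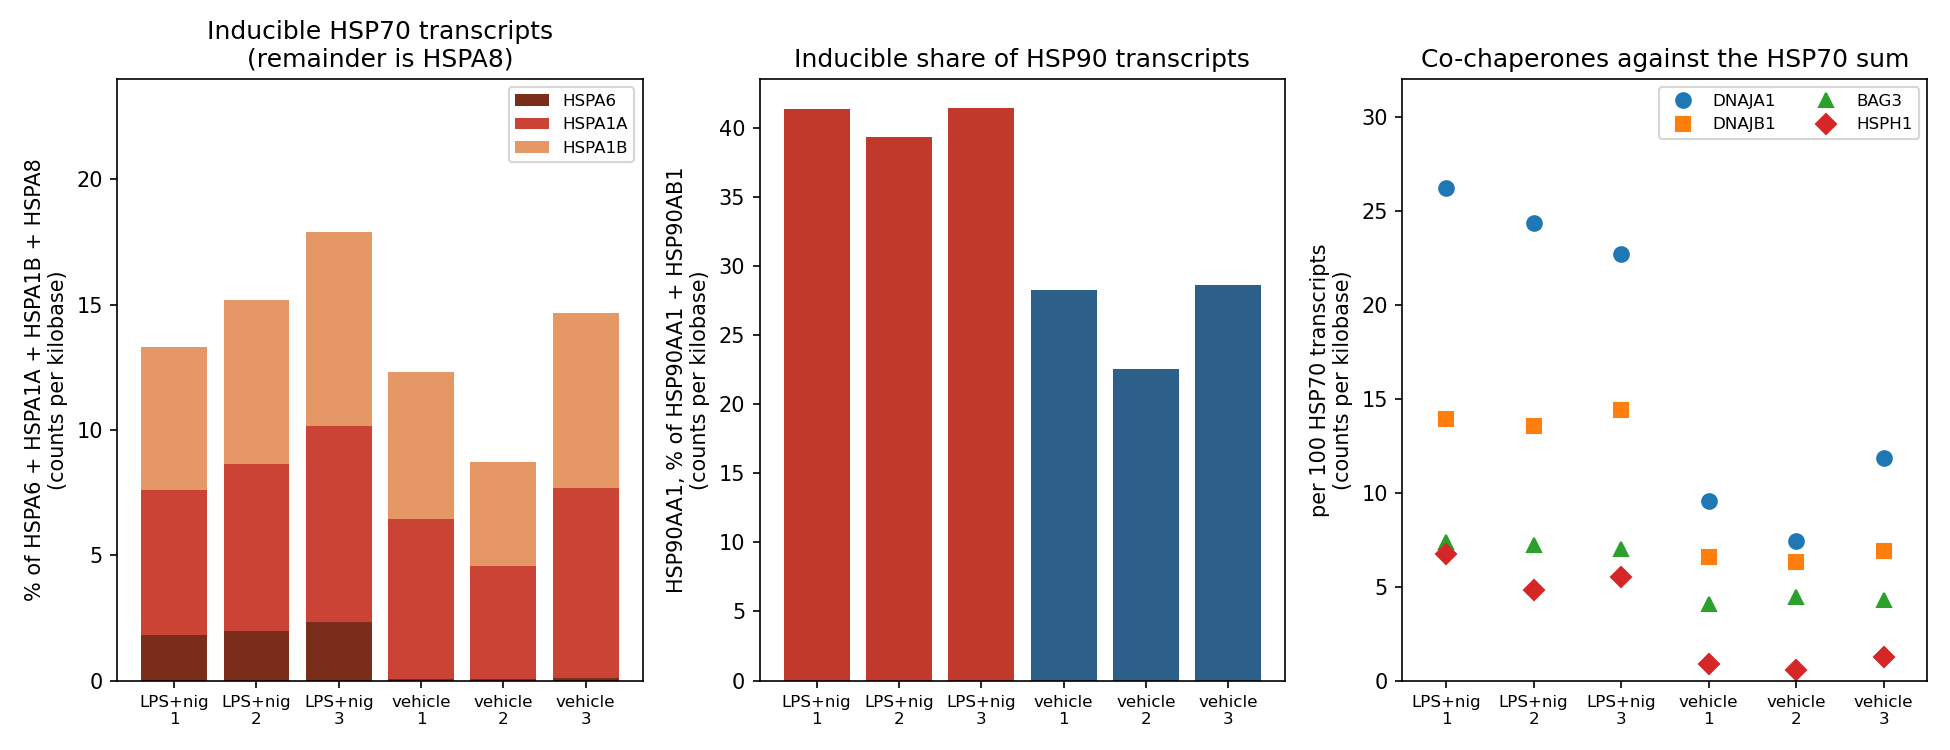
Makeup of the chaperone transcripts in each library, in counts per kilobase of longest transcript. The left panel stacks HSPA6, HSPA1A and HSPA1B as percent of their sum with HSPA8, which reaches 13.3% to 17.9% after LPS plus nigericin and 8.72% to 14.7% after vehicle. The middle panel gives HSP90AA1 as percent of HSP90AA1 plus HSP90AB1, and the right panel gives co-chaperones per 100 HSP70 transcripts, all with treated libraries above vehicle.

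Set side by side per kilobase, the order of levels differed between the groups below the most abundant 4 genes. After treatment it ran from HSPA8 at 1202 ± 30.4 CPM per kilobase through HSP90AA1 at 674 ± 35.4, DNAJA1 at 347 ± 13.7 and DNAJB1 at 198 ± 10.8 to BAG3 at 102 ± 2.40, HSPA1A, HSPA1B and HSPH1 at 80.6 ± 10.4, then HSF1 at 36.1 ± 4.60 and HSPA6 at 29.1 ± 4.70. BAG3, HSPA1A, HSPA1B and HSPH1 overlapped their neighbours in this order, as did HSF1 and HSPA6. In vehicle HSPA8 led at 861 ± 110, followed by HSP90AA1 at 171 ± 30.4 and DNAJA1 at 92.2 ± 12.9. DNAJB1, HSF1, HSPA1A, HSPA1B and BAG3 came next, each overlapping its neighbour, between 64.2 ± 3.73 and 41.6 ± 4.76, and HSPH1 at 8.57 ± 2.59 and HSPA6 at 0.714 ± 0.0591 came last. The 9 chaperone and co-chaperone genes together took 0.747% to 0.782% of all counts after treatment and 0.331% to 0.373% after vehicle.

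**Figure D4:**
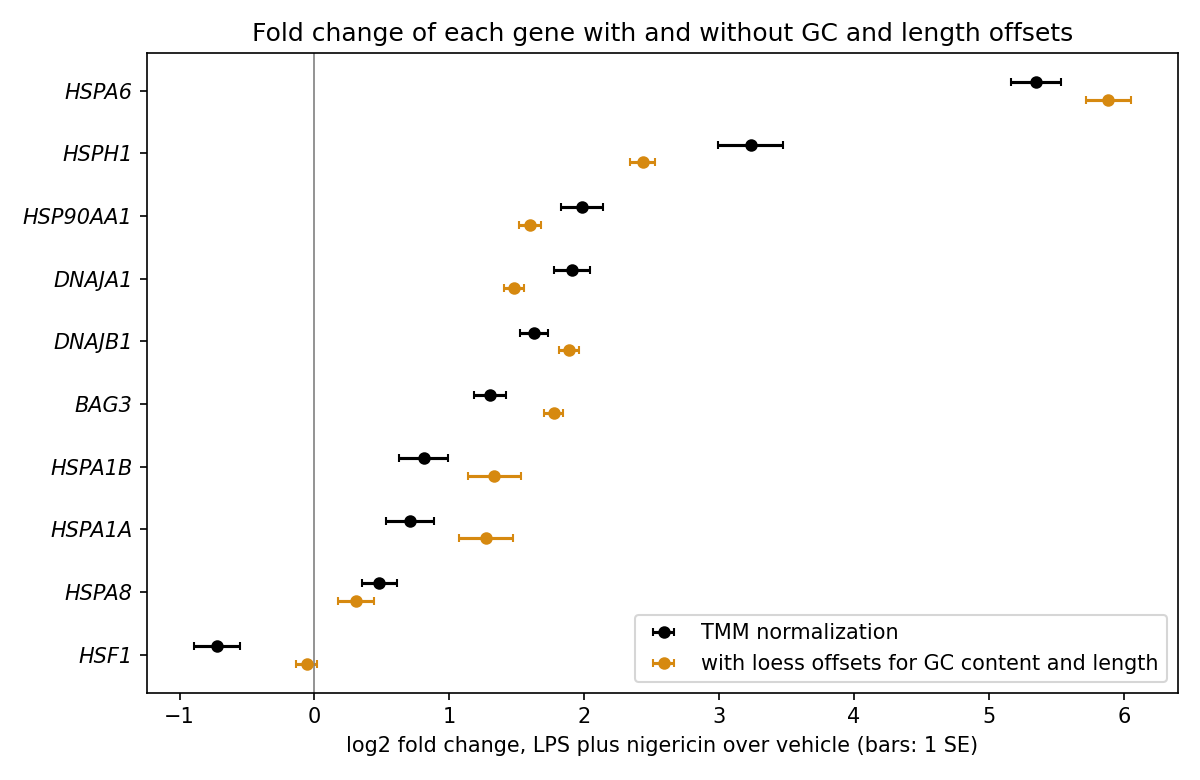
Log2 fold change of LPS plus nigericin over vehicle for each gene, with bars of 1 SE, under TMM normalization (black) and with loess offsets for GC content and length (orange). The 9 chaperone and co-chaperone genes are above 0 in both, from 0.48 to 5.35 and from 0.31 to 5.88, while HSF1 stands at -0.72 without the offsets and -0.059 with them.

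The correction takes out GC content and transcript length together, and neither was fitted alone. HSPA6, HSPA1A, HSPA1B, DNAJB1 and BAG3, of more than 50% GC, had larger fold changes with it, and HSPA8, DNAJA1, HSPH1 and HSP90AA1, all under 50% GC, smaller ones. With the correction 8 of the 10 genes were called, all higher, where 50.6% of the 18620 genes with a GC value were called and 23.3% were called higher. At least 2-fold higher and called were 6 of the 10, against 17.8% of all tested genes. A test against a 2-fold change (edgeR's glmTreat) called 6 of the 9, HSPA6, DNAJB1, DNAJA1, HSPH1, HSP90AA1 and BAG3, where 7.89% of all tested genes were called higher.

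The nearest profiles to HSPA6 over the 6 libraries, by root mean square distance of log2 CPM centred on vehicle, were those of LSMEM1, RFTN2, DNALI1, ARC and TENT5C, at distances of 0.27 to 0.36. ARC, an immediate early gene of neurons, was at 107 CPM after treatment and 2.34 CPM after vehicle. For HSF1 the nearest were ALDH16A1, EML3, KRT7, ISOC2 and RAPGEF3, at 0.02 to 0.03. These HSF1 neighbours had 59.1% to 62.9% GC, and with the correction their log2 fold changes ranged from -0.51 to 0.02.

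The rest of the chaperone network moved in both directions. Of 87 names of other heat shock and chaperone genes, 83 were in the table and 80 were tested, of which 32 rose and 20 fell, against 28.9% and 26.4% of all tested genes. With the GC and length correction the counts were 31 and 21, where 4338 of all 18620 genes tested were called higher and 5081 lower.

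Other heat shock factors went separate ways. HSF2, which can form trimers with HSF1, rose, with 7.91 ± 0.469 CPM after treatment and 3.74 ± 1.19 CPM after vehicle (log2 fold change 1.08), and HSF4, best known from the lens, fell, with 5.88 ± 0.472 CPM after treatment and 16.6 ± 2.67 CPM after vehicle (log2 fold change -1.50). HSBP1, a binding partner of HSF1 trimers, was at 0.43 and its relative HSBP1L1 at -0.71, both past the threshold. The call on HSBP1 was lost with the correction (-0.33, edgeR adjusted p = 0.0706). HSF2 was then at 0.60, HSF4 at -0.77 and HSBP1L1 at -0.90, all still called.

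Of 9 other HSP70 and HSP110 genes, 4 rose and 2 fell, with a median log2 fold change of 0.51 that was -0.10 with the correction. HSPA4, the HSP110 paralog of HSPH1, rose by 1.16, with 239.9 ± 3.87 CPM after treatment and 108 ± 0.336 CPM after vehicle. HSPA7, HSPA13 (1.22) and HSPA4L (0.86) were the other rises, and HSPA1L and HSPA12A (-0.70) the falls. With the correction HSPA4 was at 0.45, HSPA13 at 0.44 and HSPA7 at 6.11, all still called, and HSPA4L was at -0.10 and was not called. HSPA1L was then at -1.79 and HSPA12A at -1.14. Of 12 other J-domain genes, 7 rose and 5 fell, with a median of 0.83, or 0.05 with the correction, under which 4 were called higher and 5 lower. DNAJA2 (0.25), DNAJC13 (0.13) and DNAJC21 (-0.02) were then not called. DNAJA4, a relative of DNAJA1 known to be heat-inducible, rose the most, by 2.83, with 146 ± 15.0 CPM after treatment and 20.6 ± 4.22 CPM after vehicle, and DNAJB5 (-1.19), DNAJB2 (-1.10), DNAJC9 (-0.61), DNAJC5 (-0.43) and DNAJC7 (-0.28) fell.

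In the list of 13 HSP90 genes and co-chaperones with HSP90AB1, 2 rose, 2 fell and 9 did not pass, whereas with the GC and length correction 4 were called higher and 5 lower. Calls gained with it were CDC37 (0.36), STIP1 (0.34), PTGES3 (-0.29), CACYBP (-0.29), FKBP5 (-0.41) and SUGT1 (-0.76). CHORDC1, an HSP90-binding protein, rose by 2.21, or 1.31 with the correction, with 81.6 ± 10.7 CPM after treatment and 17.7 ± 8.27 CPM after vehicle. PPP5C (-1.04, or -0.88 with the correction) and UNC45A (-0.53) fell, UNC45A not with the correction (-0.07). STIP1, the adaptor between HSP70 and HSP90, had 903 ± 12.7 CPM after treatment and 923 ± 184 CPM after vehicle (log2 fold change -0.03, SE 0.152; 0.34 with the correction, edgeR adjusted p = 0.0262), and AHSA1, the activator of HSP90 ATPase, had a log2 fold change of 0.01 (SE 0.139). Of 8 BAG genes and HSP70 cofactors, 2 rose and 4 fell. ST13, the HSP70-interacting protein HIP, rose by 1.04 and BAG1 by 0.35. BAG5 (-1.10), HSPBP1 (-1.06), STUB1, the chaperone-linked ubiquitin ligase CHIP (-0.88), and BAG6 (-0.41) fell. ST13 was at 0.45, BAG5 at -1.78 and HSPBP1 at -0.25 with the correction, all still called. With the correction BAG1 (0.15), STUB1 (-0.08) and BAG6 (0.06) were not called and BAG2 was called lower (-0.90, against 0.12 without it), so that 1 gene was called higher and 3 lower.

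Of 10 names of small heat shock genes, 7 were in the table and 4 were tested. HSPB1, which encodes HSP27, fell, with 245 ± 31.0 CPM after treatment and 424 ± 106 CPM after vehicle (log2 fold change -0.79), but was at -0.01 with the correction. CRYAB, HSPB6 and HSPB9 did not pass and had at most 0.787 CPM in any library, and HSPB8, a partner of BAG3, was listed at 0 counts in all 6 libraries. The TRiC chaperonin, which folds actin and tubulin, was split, with 5 of 8 subunits higher (TCP1 at 0.97, CCT8 and CCT6A at 0.89, CCT5 at 0.72 and CCT4 at 0.63) and CCT3 (-0.85) and CCT2 (-0.66) lower. CCT5 was not called with the correction (0.26), which left 4 higher (0.32 to 0.62) and 2 lower (-0.86 and -0.72).

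Among 10 other genes known to be induced by heat shock, 4 rose, 0 fell and 6 did not pass. The stress transcription factor gene ATF3 rose by 3.63, with 91.1 ± 6.90 CPM after treatment and 7.34 ± 2.69 CPM after vehicle, and PPP1R15A, which encodes GADD34, by 2.32. DEDD2 (0.53) rose as well. Both ATF3 and PPP1R15A also respond to other stress pathways. Among 12 chaperones of the endoplasmic reticulum and mitochondria, 6 rose and 2 fell. HSPD1, the mitochondrial HSP60, rose by 1.72, HSPA9 by 1.27 and HSPA5, the BiP of the endoplasmic reticulum, by 1.62, while TRAP1 (-0.85) and HSPE1 (-0.58) fell. With the correction HSPD1 was at 1.41, HSPA9 at 0.64, HSPA5 at 1.24, TRAP1 at -0.41 and HSPE1 at -0.49. Of these 12 chaperones 9 were then called higher and 2 lower, and in the list of other heat-induced genes 5 higher and 0 lower.

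**Figure D5:**
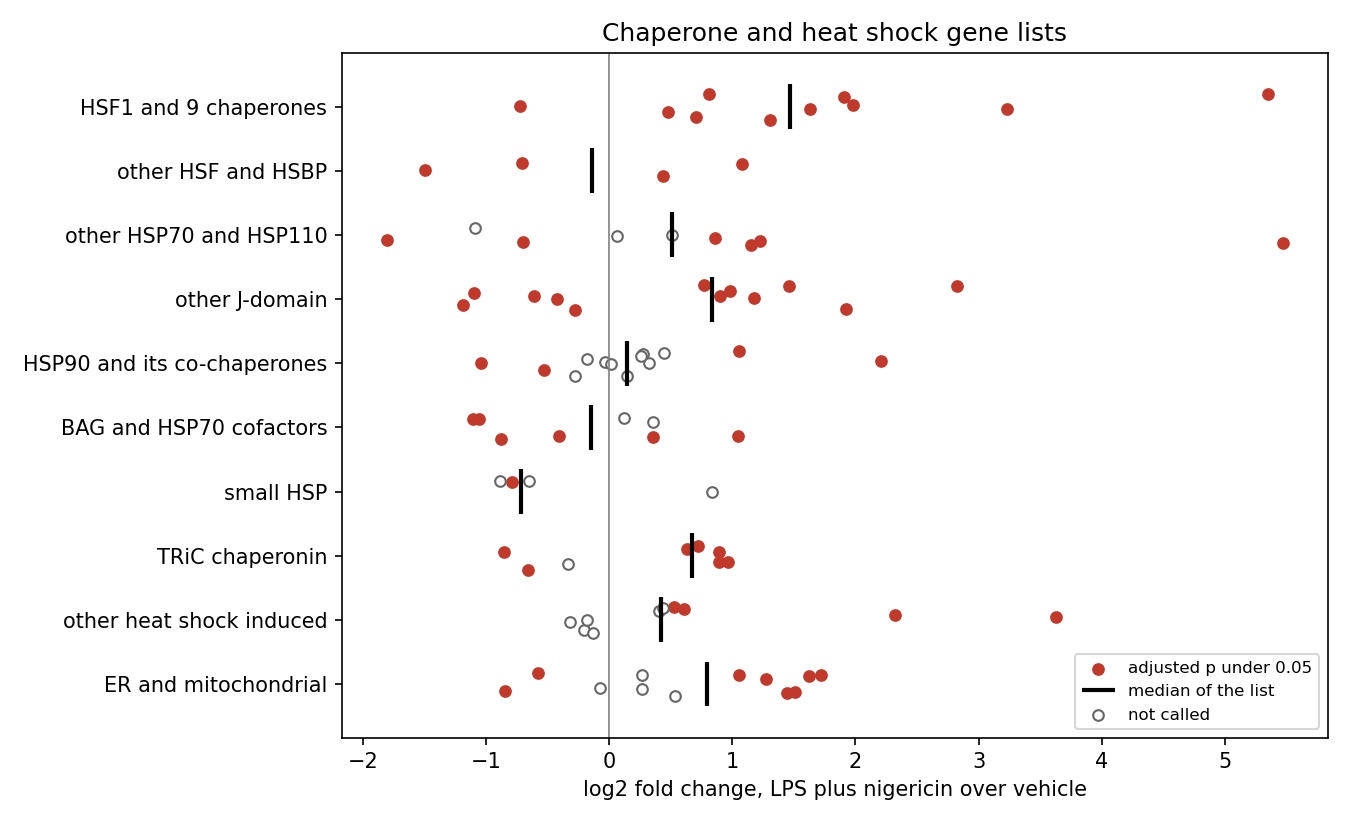
Log2 fold change of LPS plus nigericin over vehicle for each tested gene, by list, with filled points past the threshold (adjusted p under 0.05), open points not called and a black bar at the list's median. HSF1 and the 9 chaperones have a median of 1.46, the other lists have medians from -0.72 to 0.83, and every list of more than 5 genes holds points on both sides of 0.

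Genes with a 3-unit heat shock element in a promoter window numbered 60 among the tested genes. Of these 36.7% were called higher and 11.7% lower, against 31.6% and 29.2% of the 12259 tested genes with a window. For the 1668 tested genes with a 2-unit element the shares were 33.9% and 25.5%. The 22 called higher in the 3-unit set include HSPA6, HSPA8, HSP90AA1 and DNAJA1, which were chosen with earlier results known. These genes raise the share called higher, which was not computed without them. The comparison was chosen after values were seen and carries no test.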

How the data were processed

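RNA-seq of T24 cells was analysed, with 3 libraries after LPS plus nigericin and 3 after vehicle. The authors deposited raw counts per Ensembl gene, with the genome build hg38 per the submitters' processing notes. Aligner, counter, annotation release and strand setting: not given in the sources used here. All 6 columns were matched to samples by library name, and 0 columns belonged to no sample. Symbols were found for 37840 of 37871 identifiers. Genes passing edgeR's filterByExpr (19170) were fitted with edgeR 4.0.16 in R 4.3.3, with TMM factors, a robust quasi-likelihood test, the group as the only term and Benjamini-Hochberg adjustment. SE was taken as the size of the log2 fold change over the root of its F statistic. Positions, longest transcripts and GC content came from GENCODE 29, and promoters from RefSeq. The GC and length correction used loess offsets per library (span 0.3) over 18620 genes. Library totals of 66180407 to 89152224 leave counting error small beside the spread between replicates (common biological coefficient of variation 0.268), and no replicate pair matched within sampling noise (chi-square over its degrees of freedom, 22.6 to 187). Alternatives were RLE factors, library totals, DESeq2 1.42.0, limma-voom (limma 3.58.1), other count filters, a replicate block, glmTreat, the GC and length correction, omission of mitochondrial and rRNA genes, and omission of each library. Transcript shares used the longest transcript per gene, and merged exon length was added after seeing the data. Functions were tested on simulated data with a smaller spread between replicates and fewer changed genes than here. That test therefore does not measure how they perform on these data. The members and lists were chosen with earlier results of these data known. Named genes were all members, and in each list the largest rise, largest fall and smallest p, or all where 5 or fewer were tested or called in 1 direction. Nearest profiles were the 5 with the smallest distance among genes of at least 5 CPM (pseudocount 0.1 CPM). STIP1, AHSA1, HSPB8, HSPA5 and the other genes given for a call gained or lost with the correction were named after their values were seen. A gene that the rule names is not reported here.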

Additional observations from a re-analysis of the deposited data

How the results depend on the processing

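Under 17 alternatives no gene of the 10 reversed, and HSPA6, DNAJB1, DNAJA1, HSPH1, HSP90AA1 and BAG3 passed the threshold in every one. HSF1 was not called with the GC and length correction (-0.059, edgeR adjusted p = 0.565), also with the replicate block (-0.057, edgeR adjusted p = 0.571), so that 0 genes of the 10 were called lower. HSPA8 was at 0.31 with the correction (edgeR adjusted p = 0.0907), where 8 chaperone genes were called, and 9 were with the block added. Against a 2-fold change HSF1 (-0.72), HSPA1A (0.71), HSPA1B (0.81), HSPA8 (0.48) and the sum of HSPA1A and HSPA1B (0.76) were not called, 0 of the 10 were lower, 2684 of all genes were called (1512 higher and 1172 lower), and 12 of the other pathway genes were higher and 2 lower. Leaving out 1 library at a time gave values of -0.87 to -0.57 for HSF1 and 0.57 to 0.83 for HSPA1A. The values were 0.67 to 0.94 for HSPA1B and 0.38 to 0.56 for HSPA8. Without treated library 3, 7 chaperone genes were called higher instead of 9. Of all 19953 genes then tested 4470 were called higher, against 5540 of 19170 with all 6 libraries. Why these calls changed was not tested. Libraries with the same number did not vary together (correlations of -0.02, 0.10 and -0.02), so the numbers were not taken as pairs. With the replicate block 10408 genes were called, against 10610, and 9 members were higher and 1 lower, as without it. The HSP70 share differed by 1.90 to 5.54 percentage points over its alternatives (exact p = 0.2 to 0.5). Counts in vehicle were low for HSPA7 (8 to 12), which limits the precision of its fold change (SE 0.280). HSPA6 had 133 to 164 counts in vehicle, and its SE of 0.184 was near those of HSPA1A (0.181) and HSPA1B (0.180).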
